A study of Homo sapiens with 9 samples.

Results

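Processed pseudogenes outside the ribosomal protein family were followed in RNA recovered with CNOT7, and 45 of the 30956 genes of the deposited table met the definition. These are the genes annotated as processed pseudogenes that carried a symbol, whose symbol did not begin as a ribosomal protein or MT gene, and whose mean normalized count over 9 libraries was at least 50. The table listed 3768 processed pseudogenes, of which 99 reached that mean. The remainder of the 99 were 37 ribosomal protein pseudogenes, 3 with an MT symbol and 14 without a symbol. The 45 genes were thus chosen by their mean over all libraries, so that mean is given only as a description. Just inside the limit stood FTH1P8 at 50.1, RANBP1P1 at 51.2 and FTLP12 at 51.9, and just outside stood PAIP1P2 at 48.2, PLEKHA3P1 at 47.2 and HNRNPKP4 at 44.8.

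The study recovered RNA by immunoprecipitation from HEK293T, a human embryonic kidney line that carries the SV40 large T antigen. The RIP group (RNA immunoprecipitation, 3 libraries) holds RNA that came down with V5-tagged CNOT7 bearing the D40A change, which impairs the catalytic activity of CCR4-NOT. The input group comprises 6 samples, 3 from cells kept in doxycycline (3 µg/mL, 24 h) and 3 from cells without it, of which the deposited table gives 3 columns. The names of those columns fit both kinds of input, so they were used as 3 unnumbered replicates of the input group. The sources used here do not give the doxycycline state of the RIP cells. All samples are cytoplasmic RNA depleted of ribosomal RNA, per the labels. The design text names HEK293 and the sample labels HEK293T, and they do not say whether the tagged protein was studied in 1 clone. A pull-down from untagged cells was not analysed here, and RNA that sticks without the tag was not subtracted. The labels do not tell whether replicates are separate cultures, and the p-values below cover only the variation among these libraries, which may be technical.

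A processed pseudogene is a copy of an mRNA that was reverse transcribed and inserted back into the genome, usually without introns and without the promoter of its parent gene. Abundant housekeeping mRNAs have left many such copies, and a copy can be transcribed where it lands near a promoter or inside a transcribed gene. CCR4-NOT is the main cytoplasmic deadenylase: it shortens poly(A) tails and thereby starts the decay of most mRNAs, and CNOT7 is one of its nuclease subunits. Because a copy resembles its parent, reads from the pair can be hard to tell apart. The sources used here do not give how reads with several matches were counted or whether strand was used, so each pseudogene count below is uncertain where the copy still matches its parent or lies over another gene.

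PTMAP4, a copy of prothymosin alpha (PTMA), shows how far a copy and its parent can share sequence. The microRNA hsa-miR-1244 is annotated inside both, and inside 2 further PTMA pseudogenes, PTMAP2 and PTMAP9. Its 4 hairpins, of 85 bases each, were identical, including the one in PTMA at chr2:231713314-231713398 on the plus strand and the one in PTMAP4 at chr12:9239467-9239551 on the minus strand (RefSeq, GRCh38.p14). The reads were 75 bases long, so a read that falls inside that stretch fits all 4 places. The mature sequence is printed to show a part of the stretch that the copies hold in common, with the seed (bases 2 to 8) in capitals.
hsa-miR-1244: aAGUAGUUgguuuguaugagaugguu

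Sequence was also at hand where a pseudogene lay over the start of another gene. PTMAP4 overlaps the start of LINC00987, and NUS1P2, a copy of NUS1, overlaps the start of LINC00621. NUS1P2 is shown because it is 1 of the 2 members that were higher in RIP, and PTMAP4 because its ratio to its parent is described below. The stretch of PTMAP4 is chr12:9239823-9240122 on the plus strand, and that of NUS1P2 is chr13:22916320-22916619 on the minus strand (RefSeq, GRCh38.p14). For PTMAP4 the printed strand is opposite to that of its hsa-miR-1244 hairpin. Capitals mark the 50 bases that begin at the start site of the overlapping gene.
PTMAP4: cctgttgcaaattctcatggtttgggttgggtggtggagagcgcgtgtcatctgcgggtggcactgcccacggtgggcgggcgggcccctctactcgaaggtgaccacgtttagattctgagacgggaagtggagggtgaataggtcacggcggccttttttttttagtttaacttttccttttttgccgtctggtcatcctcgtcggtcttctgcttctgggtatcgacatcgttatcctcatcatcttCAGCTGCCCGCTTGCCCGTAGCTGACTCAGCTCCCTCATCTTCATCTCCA
NUS1P2: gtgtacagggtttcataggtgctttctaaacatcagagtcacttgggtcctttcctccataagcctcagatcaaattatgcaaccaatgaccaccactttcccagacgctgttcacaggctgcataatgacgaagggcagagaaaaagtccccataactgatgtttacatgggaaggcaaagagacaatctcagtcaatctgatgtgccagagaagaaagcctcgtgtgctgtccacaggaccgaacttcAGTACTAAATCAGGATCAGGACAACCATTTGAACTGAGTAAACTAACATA

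The 3 RIP libraries held 37140622 to 40764899 reads in genes and the 3 input columns 37290120 to 38918356. Genes encoded by mitochondrial DNA took 0.931 to 1.12% of reads in RIP and 18.6 to 26.6% in input, and the part of this difference in the folds below was not tested beyond the alternative scalings. RIP replicate 2 stood apart from the other RIP libraries: 14786 genes had no read in it, against 6720 and 6398 in RIP replicates 1 and 3. Its correlation with them over 16765 genes was 0.89 on the log2 scale, against 0.98 between RIP replicates 1 and 3, and 0.93 to 0.95 among inputs. In RIP replicate 2, 13 of 45 (28.9%) lay over 2-fold below the mean of the other RIP libraries and 7 (15.6%) lay over 2-fold above it, against 12.9% and 4.69% of 8875 genes with a mean of 50 to 2000. Folds that moved by over 1.5 times, turned sign or changed their call without that library are therefore given with and without it. Of the markers of this line, NEFL, NEFM, KRT8, KRT18 and VIM had mean normalized counts of 188 or more in RIP and 307 or more in input, NEFH averaged 11.3 in RIP and 5.07 in input, and ALB, a hepatocyte marker, averaged 3.85 in RIP and 0 in input. In bulk RNA, fewer cells that carry a transcript and less of it per cell cannot be told apart.

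All values below are normalized counts, that is, reads divided by the size factor of the library, and each fold is a difference of log2(normalized count + 1) between RIP and input, tested with limma and adjusted over the 16765 genes with a mean of at least 10 in the 6 libraries. All 45 pseudogenes passed that filter. A difference is called where the adjusted p is under 0.05. The sum of reads over the 45 pseudogenes was 5825 to 7425 in RIP libraries and 7187 to 7737 in input columns.

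Most of the pseudogenes were lower in RIP or did not pass the test. Of the 45, 2 were higher in RIP, 14 were lower and 29 were not called, against a background of 22.4% of all 16765 genes called higher, 21.2% called lower and 43.6% called in either direction. The 2 higher ones were CNOT7P1 and NUS1P2. All 3 RIP libraries lay above all 3 input columns for 5 pseudogenes and below them for 21, where the background was 27.4% above and 27.3% below. The median fold was -0.98, against -0.043 over all genes tested and 0.021 over 7491 protein-coding genes with a mean of 50 to 2000. The fold was negative for 34 pseudogenes and positive for 11. The median SE was 0.65, against 0.23 over all genes. With scaling by total reads, which moved the median of all genes up by 0.49, the split of calls was 4 higher and 6 lower, against 36.7% higher and 9.86% lower of all genes in the same fit. With scaling by the total without mitochondrially encoded and small RNA genes it was 2 higher and 10 lower, against 25.9% higher and 17.8% lower of all genes. In the authors' deposited table, higher calls numbered 2 of the 45 and lower calls 18 at the same threshold, against 20.6% higher and 19.9% lower of 20649 genes with an adjusted p.

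The limit on the mean bears on these counts. A group of 15 pseudogenes had an input mean of at least 50 and a RIP mean under 50, and 7 of them were called lower. These were FTH1P8, FTLP3, PFN1P1, GAPDHP1, EEF1A1P13, RANBP1P1 and UBE2D3P1. Conversely, 4 had a RIP mean of at least 50 and an input mean under 50, with 1 called higher, NUS1P2. Such genes met the limit through the group where they were high, so their calls, here and below, are descriptions only. In the 24 whose means were at least 50 in both groups, 1 was called higher and 7 lower, with a median fold of -0.42, beside the background of 22.4% higher and 21.2% lower. The other 2 had means under 50 in both groups and met the limit through the inputs without a column. Leaving out 1 library at a time moved the number called lower to 8 without RIP replicate 1 (20.7% of all genes in the same fit), 18 without RIP replicate 2 (22.1%) and 11 without RIP replicate 3 (21.1%). It was 5 without the input column Input1 (18.6% of all genes), 8 without Input2 (17.2%) and 5 without Input3 (17.8%). As a share of the 45, the 5 called lower without Input1 or Input3 lie below the share of all genes, whereas the 14 of the full set lie above it. The number called higher was 1 without RIP replicate 3, 3 without RIP replicate 2 and 2 otherwise, against 18.7% to 22.7% of all genes. In all 6 of these omissions 6 pseudogenes kept their call: PPIAP22, H3P6, H3P16, GAPDHP1 and PTMAP4, all lower in RIP, and CNOT7P1, higher in RIP. With the edgeR quasi-likelihood test on recovered reads, the calls of EEF1A1P13, FTH1P8, GAPDHP65, NUS1P2, PFN1P1, RANBP1P1 and UBE2D3P1 were lost, and with no filter on low values these and GPX1P1 and HMGN2P5 were lost. Scaling by total reads ended the calls of EEF1A1P13, GAPDHP65, GPX1P1, HMGN2P5, PFN1P1, PTMAP4, RANBP1P1 and UBE2D3P1, and added FTLP12 and GEMIN8P4 as higher.

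**Figure D1:**
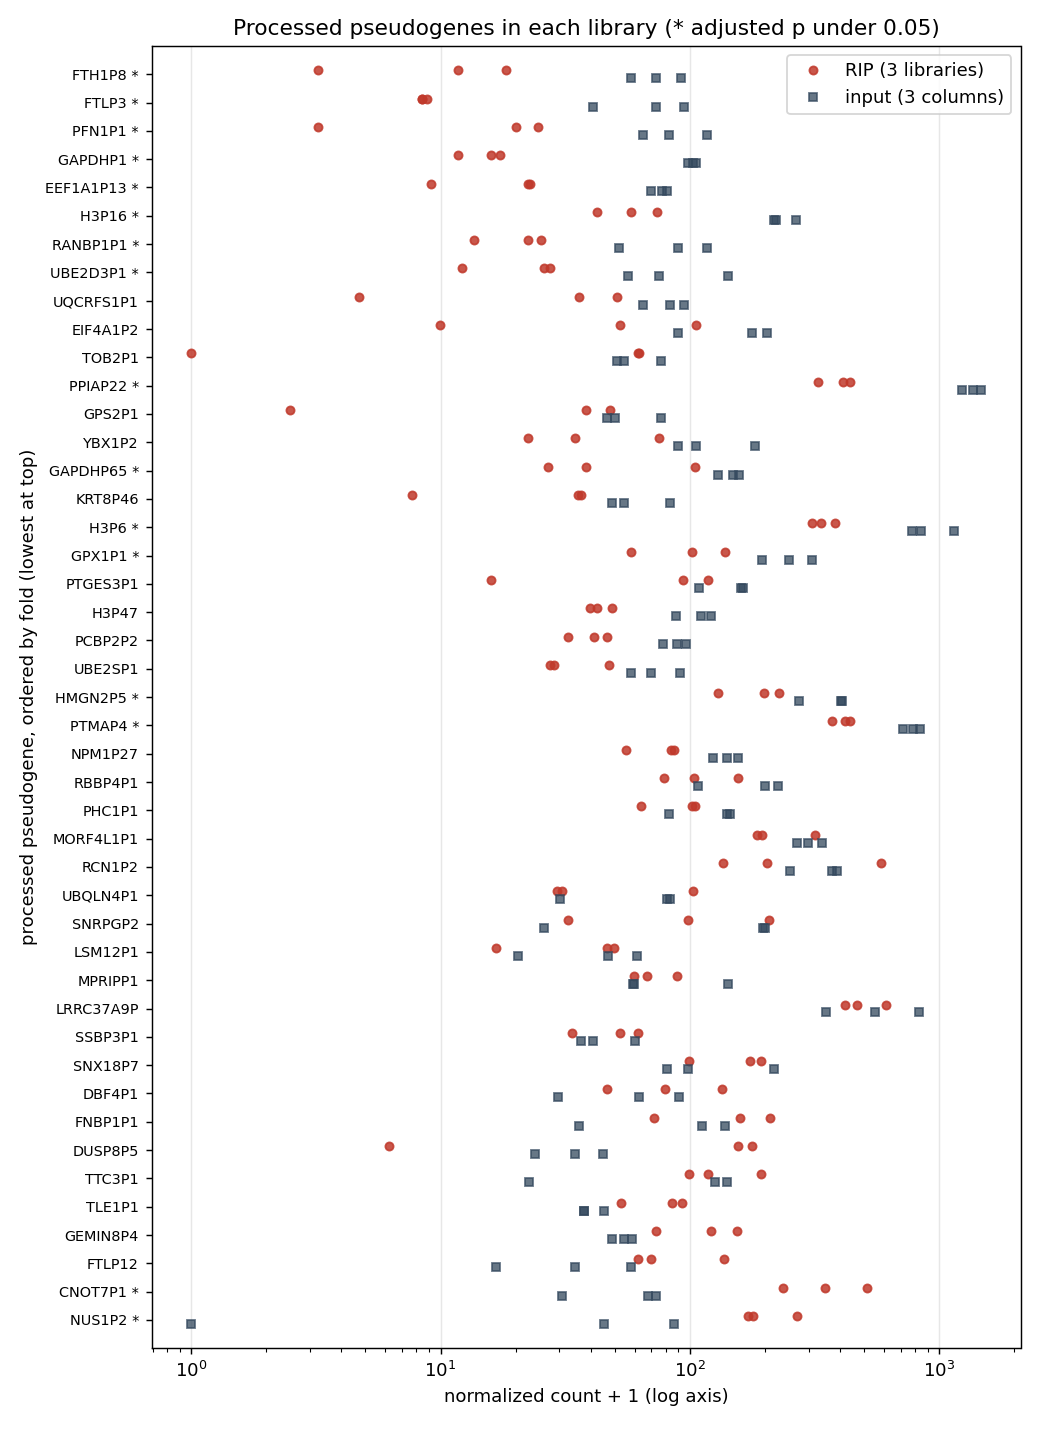
Normalized count plus 1 (log axis) of the 45 processed pseudogenes in each of 3 RIP libraries (red circles) and 3 input columns (dark squares), ordered by the log2 fold of RIP over input. The RIP circles lie left of the input squares for the genes at the top, such as GAPDHP1 (10.8 to 16.4 in RIP, 97.1 to 104 in input), and right of them for CNOT7P1 and NUS1P2 at the bottom. An asterisk marks the 16 genes with an adjusted p under 0.05.

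The copy of the bait's own gene was among the 2 pseudogenes higher in RIP. CNOT7P1 lies at chrX:69937288-69938257 (GRCh38.p14), within EDA, the gene of ectodysplasin A, and is 970 bases long. It had 234, 513 and 346 normalized counts in RIP libraries, against 66.8, 29.7 and 72.1 in input columns, so every RIP library was over 3 times the highest input column. The log2 fold was 2.70 (SE 0.48, adjusted p = 0.000677), and 2.42 (adjusted p = 0.000668) without RIP replicate 2. The mean over the 3 inputs that have no column, derived from the deposited mean over 9 libraries and therefore without an SD, was 1.08. The mean of the 3 input columns was 56.2. A count of 0 allows up to 2.24 to 3.49 normalized counts in the libraries with columns, and 1.08 lies below that range. The copy was thus close to undetected in the inputs without a column.

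CNOT7, the parent and the tagged protein's gene, averaged 86982 ± 11495 in RIP and 24799.9 ± 498 in input (SD, n = 3 each), with a log2 fold of 1.80 (SE 0.13, adjusted p = 1.35e-06). Its derived mean over the 3 inputs without a column was 4240.0, so parent and copy were both lower in those inputs than in the 3 with columns. They were not lower to the same degree: CNOT7 kept a clear count there, whereas the copy was close to undetected. Per 1000 counts of CNOT7, the copy had 2.94, 6.33 and 3.45 counts in RIP libraries and 2.74, 1.21 and 2.84 in input columns. All 3 RIP ratios were above the 3 input ratios, but the difference between the folds of copy and parent, 0.90 (SE 0.52, adjusted p = 0.675), did not pass the test. EDA, within which the copy lies, averaged 1710.4 ± 231 in RIP and 916 ± 73.5 in input, a log2 fold of 0.89 (SE 0.16, adjusted p = 0.000698). The part that reads of the tagged CNOT7 transcript take in the count of CNOT7P1 was not tested.

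NUS1P2 was the other pseudogene higher in RIP. NUS1 encodes the Nogo-B receptor, a subunit of the cis-prenyltransferase that makes dolichol. NUS1P2, at chr13:22915461-22917546, had 171, 268 and 178 normalized counts in RIP libraries, against 85.6, 0 and 44.2 in input columns. The 3 RIP libraries were close to each other, and the input columns spread widely, with no read in 1 of them. The log2 fold was 3.68 (SE 1.31, adjusted p = 0.0384), but 1.69 (adjusted p = 0.0228) without the input column Input2, which had no read. The call was lost without RIP replicate 2, at 3.48 (adjusted p = 0.0563), and without RIP replicate 3, at 3.77 (adjusted p = 0.0527). It was also lost with the edgeR quasi-likelihood test, at 2.24 (adjusted p = 0.0958), and with no filter on low values (limma adjusted p = 0.282). The authors' deposited table gave a log2 fold of 2.25. NUS1 itself averaged 3651 ± 317 in RIP and 3776 ± 571 in input, with a log2 fold of -0.041 (SE 0.14, adjusted p = 0.84). LINC00621, the long noncoding RNA whose start lies in the printed stretch, averaged 23.8 ± 18.8 in RIP and 52.9 ± 16.6 in input, a log2 fold of -1.71 (SE 1.05, adjusted p = 0.214) that was not called.

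Of 3 ferritin pseudogenes, 2 were lower in RIP and the third was not called. Each met the limit on the mean through the group where it was high: FTLP3 and FTH1P8 through input, FTLP12 through RIP. Ferritin, made of heavy (FTH1) and light (FTL) chains, stores iron in the cytosol. FTLP3, a light chain copy at chr20:4023718-4024588, had 7.45, 7.45 and 7.84 in RIP libraries, against 93.9, 40.0 and 72.1 in input columns, and FTH1P8, a heavy chain copy at chrX:148052012-148052923, had 10.8, 2.24 and 17.2 in RIP libraries, against 90.8, 71.9 and 57.0 in input columns. Both sets of libraries were fully separated, and the log2 folds were -2.94 (SE 0.90, adjusted p = 0.0186) for FTLP3 and -3.04 (SE 0.96, adjusted p = 0.0217) for FTH1P8. The call of FTLP3 was lost without Input1 or Input3, and that of FTH1P8 without any of the input columns. Without RIP replicate 2, the fold of FTH1P8 was -2.32 (adjusted p = 0.00656).

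FTLP12, a shorter light chain copy of 450 bases at chr17:16391434-16391883, had 68.7, 136 and 61.1 in RIP libraries, against 15.7, 57.1 and 33.7 in input columns. All RIP libraries lay above all inputs, but its log2 fold of 1.38 (SE 0.71, adjusted p = 0.138) did not pass the test. FTL fell to 3065 ± 397 in RIP, against 15718 ± 2953 in input, a log2 fold of -2.35 (SE 0.15, adjusted p = 7.32e-07). FTLP12 had 24.3, 38.5 and 21.5 counts per 1000 counts of FTL in RIP libraries, against 1.18, 3.82 and 1.78 in input columns. The difference between its fold and that of FTL was 3.73 (SE 0.54, adjusted p = 0.0379), adjusted over 267 pairs of processed pseudogene and named parent. FTLP3, from the same parent, had 2.64, 2.11 and 2.75 counts per 1000 of FTL in RIP libraries, against 7.10, 2.67 and 3.80 in input columns, and these ranges overlapped. FTH1 averaged 5252 ± 800.2 in RIP and 22866 ± 3832 in input, with a log2 fold of -2.12 (SE 0.15, adjusted p = 1.09e-06). The FTLP12 pair was not called when any RIP replicate or the input column Input1 or Input3 was left out, with differences of 3.37 to 3.90 and adjusted p of 0.131 to 0.192, and it was called without Input2 at 4.18 (adjusted p = 0.0213). In the list of redox and nucleotide metabolism parents, these 3 ferritin copies were the members, with 2 lower, none higher and a median fold of -2.94. The share of all genes was 21.2% lower and 22.4% higher, and the list was not tested as a set.

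Both copies of glyceraldehyde-3-phosphate dehydrogenase, the glycolytic enzyme GAPDH, were lower in RIP. GAPDHP1, at chrX:39786931-39787828, had 10.8, 16.4 and 14.9 in RIP libraries, against 104, 97.1 and 102 in input columns. Its replicates were tight in both groups, and the log2 fold was -2.79 (SE 0.70, adjusted p = 0.0063). GAPDHP65, at chrX:46439512-46440785, had 37.3, 104 and 25.9 in RIP libraries, against 128, 147 and 157 in input columns. RIP replicate 2 was the highest of its RIP libraries, and the log2 fold was -1.61 (SE 0.59, adjusted p = 0.0451) with it and -2.17 (adjusted p = 0.000857) without it. Leaving out any other single library ended the call of GAPDHP65. GAPDH averaged 21282 ± 1979.9 in RIP and 101905 ± 12884 in input, a log2 fold of -2.26 (SE 0.14, adjusted p = 6.79e-07). The folds of the copies differed from that of GAPDH by -0.53 (SE 0.33, adjusted p = 0.675) for GAPDHP1 and 0.65 (SE 0.53, adjusted p = 0.69) for GAPDHP65, neither of which passed the test.

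The pseudogene with the highest deposited mean per kilobase was a copy of cyclophilin A. PPIA, its parent, is a prolyl isomerase that helps proteins fold. PPIAP22, at chr21:18857737-18858476, had 325, 439 and 409 in RIP libraries, against 1234, 1363 and 1469.7 in input columns, with no overlap, and a log2 fold of -1.80 (SE 0.19, adjusted p = 1.68e-05). Its deposited mean per kilobase of gene length was 1363, followed by 771 for H3P6 and 529 for PTMAP4. PPIA averaged 4366 ± 458 in RIP and 15872 ± 2419 in input, a log2 fold of -1.86 (SE 0.14, adjusted p = 1.45e-06). Per 1000 counts of PPIA, PPIAP22 had 84.6, 95.7 and 87.6 counts in RIP libraries and 92.9, 83.8 and 81.3 in input columns, which overlapped, and the difference of the folds was 0.056 (SE 0.31, adjusted p = 0.953). PTGES3P1, a copy of the HSP90 cochaperone p23 and the other member of the chaperone list, had 92.7, 14.9 and 117 in RIP libraries, against 159, 162 and 108 in input columns. Its low value was RIP replicate 2, and its log2 fold of -1.34 (SE 0.72, adjusted p = 0.156) was not called with or without that library, being -0.43 (adjusted p = 0.346) without it. PTGES3P1 was named after its values were seen.

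**Figure D2:**
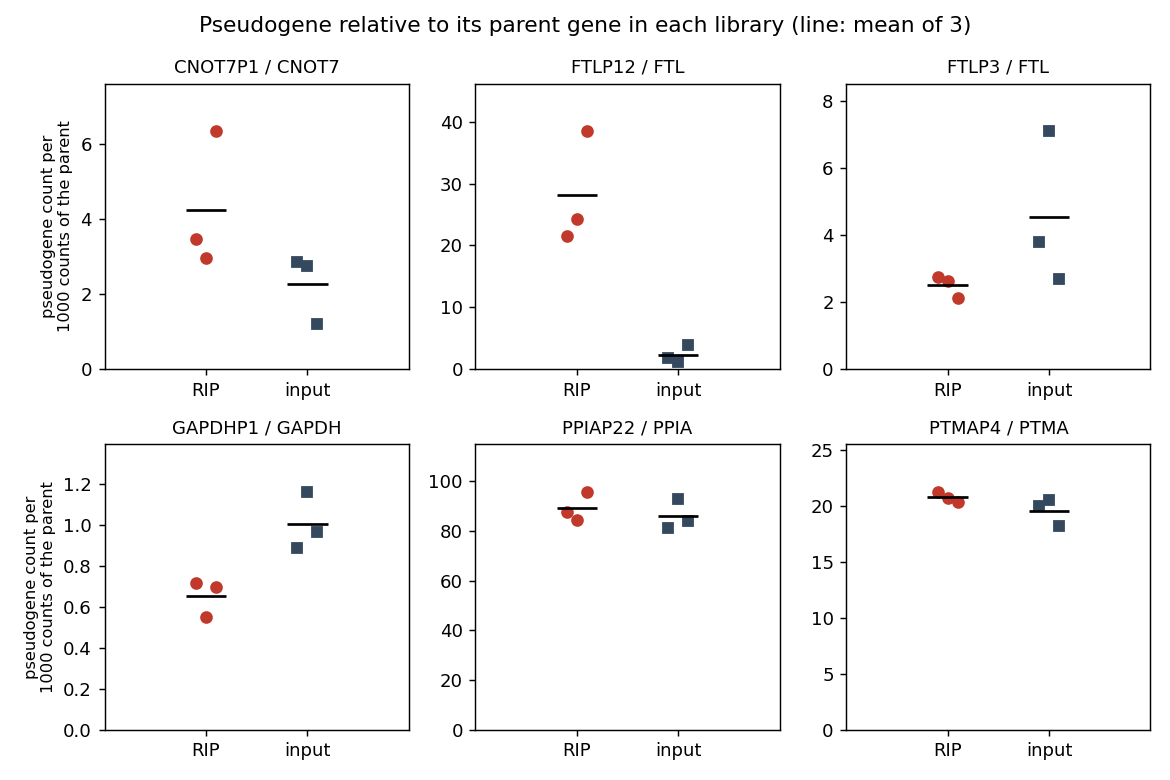
Counts of 6 pseudogenes per 1000 counts of their parent gene in each RIP library (red circles) and each input column (dark squares), with a line at the mean of 3. FTLP12 over FTL lies at 21.5 to 38.5 in RIP and 1.18 to 3.82 in input, whereas PPIAP22 over PPIA overlaps between the groups.

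Of the 4 copies of chromatin and nucleolar protein genes, 2 were lower and none higher, with a median fold of -0.92. Of all genes, 21.2% were called lower and 22.4% higher, and no list of parents was tested as a set. Prothymosin alpha is a small acidic nuclear protein that binds histone H1. PTMAP4, at chr12:9239326-9240496, had 417, 369 and 436 in RIP libraries, against 783, 711 and 837 in input columns. The groups did not overlap, and the log2 fold was -0.93 (SE 0.20, adjusted p = 0.00252). With scaling by total reads the fold was -0.44 (adjusted p = 0.107), which ended the call. PTMA averaged 19603 ± 1301 in RIP and 39706 ± 1996 in input, a log2 fold of -1.02 (SE 0.12, adjusted p = 2.65e-05). Copy per 1000 counts of PTMA was 20.7, 20.4 and 21.3 in RIP libraries and 20.5, 18.2 and 20.0 in input columns, a near constant ratio across all 6 libraries. Reads from the stretch that PTMAP4 has in common with PTMA cannot be told apart, as the identical hairpins show, and their part in that ratio was not tested.

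HMGN2P5 is a copy of HMGN2, which encodes a nucleosome-binding protein, and lies at chr15:29730612-29731806 within TJP1, the gene of a tight junction protein. It had 128, 197 and 227 in RIP libraries, against 403, 274 and 405 in input columns. The lowest input column was above the highest RIP library, and the log2 fold was -0.98 (SE 0.33, adjusted p = 0.0315). TJP1 had a log2 fold of -0.099 (SE 0.15, adjusted p = 0.615) and HMGN2 one of -1.13 (SE 0.14, adjusted p = 4.26e-05). The call of HMGN2P5 was lost without RIP replicate 1, Input1 or Input3, with scaling by total reads at -0.49 (adjusted p = 0.265), with scaling without mitochondrially encoded and small RNA genes at -0.85 (adjusted p = 0.0591), and with no filter on low values (adjusted p = 0.0874). NPM1P27, a copy of nucleophosmin, and RBBP4P1, a copy of a histone chaperone gene, had log2 folds of -0.91 (SE 0.46, adjusted p = 0.13) and -0.64 (SE 0.46, adjusted p = 0.283), and they too were named after their values were seen. NPM1P27 was called lower without RIP replicate 2, at -1.03 (adjusted p = 0.0382).

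Histone H3 pseudogenes carry no parent in their symbol, since several H3 genes are alike in protein. H3P6, at chr2:174719800-174720858, had 380.1, 334 and 308 in RIP libraries, against 844, 779 and 1143 in input columns, a log2 fold of -1.42 (SE 0.22, adjusted p = 0.000267). H3P16, at chr4:139697626-139698635 within MGST2, a glutathione transferase gene, had 41.4, 73.0 and 57.2 in RIP libraries, against 217, 220.4 and 265 in input columns, a log2 fold of -2.05 (SE 0.44, adjusted p = 0.00227). Neither overlapped between groups, and both stayed called in each of the 12 alternative settings. The third, H3P47, had 41.4, 38.7 and 47.8 in RIP libraries, against 109.6, 86.8 and 121 in input columns. It did not overlap either, but its fold of -1.28 (SE 0.54, adjusted p = 0.0751) was called in 3 of the 12 alternative settings, among them without RIP replicate 2 at -1.22 (adjusted p = 0.0308). H3P47 was named after its values were seen. For comparison, the replacement histone gene H3-3A averaged 237 ± 25.5 in RIP and 674 ± 139 in input, and H3-3B averaged 19921 ± 2943 in RIP and 16076 ± 1065 in input. Their log2 folds were -1.49 (SE 0.25, adjusted p = 0.000436) for H3-3A and 0.30 (SE 0.13, adjusted p = 0.0899) for H3-3B. MGST2 had a log2 fold of -1.02 (SE 0.37, adjusted p = 0.0423).

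LRRC37A9P, the fourth without a named parent, overlapped between groups. It had 610.3, 469 and 419 in RIP libraries, against 550.1, 827 and 351 in input columns, a log2 fold of -0.14 (SE 0.30, adjusted p = 0.746).

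Among copies of translation factors, 1 of 2 was lower, against 21.2% of all genes. EEF1A1, the elongation factor that brings aminoacyl-tRNA to the ribosome, is copied in EEF1A1P13 at chr5:14651643-14653389, over the small nucleolar RNA gene SNORD141B. The copy had 21.5, 8.20 and 21.9 in RIP libraries, against 68.9, 76.5 and 80.2 in input columns, a log2 fold of -2.18 (SE 0.76, adjusted p = 0.0363). The groups did not overlap, but omission of any library other than RIP replicate 2 ended the call. EEF1A1 averaged 26384 ± 2025 in RIP and 101484 ± 4993 in input, with a log2 fold of -1.95 (SE 0.13, adjusted p = 8.37e-07). EIF4A1P2, a copy of the RNA helicase EIF4A1 within PCDH11Y, had 51.3, 8.94 and 105 in RIP libraries, against 88.7, 177 and 202 in input columns. Whether its reads came from this copy or from EIF4A1 was not tested. The RIP libraries spread more than 10-fold, and the log2 fold of -1.96 (SE 0.80, adjusted p = 0.0683) was not called. Without RIP replicate 2 the fold was -0.99 (adjusted p = 0.0925), and it was called lower without RIP replicate 3, at -2.70 (adjusted p = 0.0166), and with a pseudocount of 5, at -1.78 (adjusted p = 0.0492). The EIF4A1 row averaged 14.4 ± 14.5 in RIP and 81.8 ± 22.8 in input, a log2 fold of -3.40 (SE 1.22, adjusted p = 0.0408). That input mean was below every input column of the copy. Whether reads of EIF4A1 were counted in its own row was not tested.

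Of the 2 cytoskeletal copies, 1 was lower, against 21.2% of all genes. PFN1P1, from profilin, which binds actin monomers, had 19.0, 2.24 and 23.5 in RIP libraries, against 81.4, 63.9 and 116 in input columns. RIP replicate 2 had the fewest, and the log2 fold was -2.87 (SE 0.95, adjusted p = 0.0269) with it and -1.95 (adjusted p = 0.00861) without it. The call was lost without any of the input columns. PFN1 averaged 5505 ± 701 in RIP and 20774 ± 4329 in input, a log2 fold of -1.90 (SE 0.16, adjusted p = 2.76e-06). KRT8P46, from keratin 8, had a log2 fold of -1.49 (SE 0.85, adjusted p = 0.183), and of -0.74 (adjusted p = 0.278) without RIP replicate 2, and was named after its values were seen.

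In the ubiquitin and proteasome list 1 of 3 copies was lower, and the single copy from the GTPase list was lower, against 21.2% of all genes. UBE2D3P1, from a ubiquitin-conjugating enzyme, had 26.5, 11.2 and 25.1 in RIP libraries, against 55.3, 142 and 74.4 in input columns. RANBP1P1, from the Ran-binding protein RANBP1, which acts in nuclear transport, had 21.5, 12.7 and 24.3 in RIP libraries, against 51.1, 116 and 88.4 in input columns. Both were separated between groups with a wide spread of the inputs, and the log2 folds were -2.04 (SE 0.74, adjusted p = 0.0422) for UBE2D3P1 and -2.04 (SE 0.73, adjusted p = 0.0383) for RANBP1P1. Each was called in 3 of the 12 alternative settings, and for both any omission other than RIP replicate 2 ended the call. Their parents were lower too, by a log2 fold of -0.86 (SE 0.11, adjusted p = 6.12e-05) for UBE2D3 and -1.10 (SE 0.15, adjusted p = 7.9e-05) for RANBP1.

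None of the 4 copies from RNA-binding and splicing genes was called, with a median fold of -0.68, although the authors' deposited table had YBX1P2 and PCBP2P2 lower at the same threshold. Of all genes, 43.6% were called in either direction. SNRPGP2, a copy of the core splicing protein SmG, varied as much within as between groups: it had 31.5, 206 and 97.2 in RIP libraries, against 25.1, 199.8 and 195 in input columns, a log2 fold of -0.21 (SE 0.86, adjusted p = 0.863), and of -0.84 (adjusted p = 0.418) without RIP replicate 2. YBX1P2, from the mRNA-binding protein YB-1, had 21.5, 74.5 and 33.7 in RIP libraries, against 104, 182 and 88.4 in input columns. Its log2 fold was -1.62 (SE 0.63, adjusted p = 0.0565), and -2.10 (adjusted p = 0.0034) without RIP replicate 2, which was the highest of its RIP libraries. YBX1 itself had a log2 fold of -2.19 (SE 0.12, adjusted p = 3.26e-07). YBX1P2 was named after its values were seen. The single mitochondrial copy, UQCRFS1P1, from the Rieske iron-sulphur protein, had 34.8, 3.73 and 50.2 in RIP libraries, against 93.9, 63.9 and 82.6 in input columns. It did not overlap between groups but its log2 fold of -1.97 (SE 0.92, adjusted p = 0.108) was not called. Without RIP replicate 2, the lowest of its libraries, the fold was -0.91 (adjusted p = 0.137). The lists of cell cycle and of transcription factor parents had 0 members.

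The 17 copies whose parents fell in none of the lists had 2 higher, which were CNOT7P1 and NUS1P2, 1 lower and a median fold of 0.31. The share of all genes was 22.4% higher and 21.2% lower. The lower one was GPX1P1, a copy of glutathione peroxidase 1, which reduces hydrogen peroxide. It had 57.1, 137 and 101 in RIP libraries, against 308, 194 and 248 in input columns, a log2 fold of -1.40 (SE 0.43, adjusted p = 0.0202), and the call was lost without RIP replicate 1, Input1 or Input3. GPX1 averaged 189.5 ± 33.4 in RIP and 729 ± 145 in input, a log2 fold of -1.93 (SE 0.27, adjusted p = 0.000105). Copy per 1000 counts of GPX1 was 348, 773 and 445 in RIP libraries and 532, 262 and 285 in input columns, which overlapped.

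RCN1P2, MORF4L1P1 and SNX18P7 were among the 10 highest in deposited mean and were not called. RCN1P2, from a calcium-binding protein of the endoplasmic reticulum, had 202, 580.5 and 135 in RIP libraries, against 252, 369 and 387 in input columns. RIP replicate 2 was far above the others, and the log2 fold was -0.39 (SE 0.46, adjusted p = 0.527) with it and -0.99 (adjusted p = 0.0147) without it. MORF4L1P1, from a chromodomain protein, had 185, 194 and 316 in RIP libraries, against 338, 297 and 269 in input columns, a log2 fold of -0.42 (SE 0.32, adjusted p = 0.317). SNX18P7, from a sorting nexin, had 173, 192 and 98.0 in RIP libraries, against 216, 79.9 and 97.7 in input columns, a log2 fold of 0.31 (SE 0.49, adjusted p = 0.641), and of 0.13 (adjusted p = 0.841) without RIP replicate 2. The groups overlapped for all 3.

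Several copies in this group turned on RIP replicate 2, and those in this paragraph were chosen after their values were seen. DUSP8P5, a copy of a MAP kinase phosphatase gene, had 155, 5.22 and 176 in RIP libraries, against 43.8, 22.8 and 33.7 in input columns. RIP replicates 1 and 3 were above every input and RIP replicate 2 was below, and the log2 fold was 0.74 (SE 1.14, adjusted p = 0.635) with it and 2.32 (adjusted p = 0.00147) without it. Its parent DUSP8 averaged 2412 ± 151 in RIP and 844 ± 75.8 in input, a log2 fold of 1.52 (SE 0.15, adjusted p = 7.27e-06). TOB2P1, from TOB2, whose protein binds the CCR4-NOT nucleases, had 61.3, 0 and 61.1 in RIP libraries, against 53.2, 50.2 and 75.6 in input columns. No read was seen in RIP replicate 2, and the log2 fold was -1.93 (SE 1.39, adjusted p = 0.292) with it and 0.059 (adjusted p = 0.931) without it. TOB2 averaged 8060.2 ± 788 in RIP and 3023 ± 159 in input, a log2 fold of 1.41 (SE 0.12, adjusted p = 3.17e-06), and the difference of the 2 folds, -3.34 (SE 1.60, adjusted p = 0.606), did not pass the test. GEMIN8P4, from a gene of the SMN complex that assembles spliceosomal particles, had 120.1, 72.3 and 154 in RIP libraries, against 57.4, 53.7 and 47.7 in input columns, with no overlap, and a fold of 1.05 (SE 0.53, adjusted p = 0.137) that was called without RIP replicate 2, at 1.35 (adjusted p = 0.0165). Without that library 3 pseudogenes were called higher and 18 lower: DUSP8P5, GEMIN8P4, H3P47, NPM1P27, RCN1P2 and YBX1P2 were added and NUS1P2 was lost.

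The remaining 12 pseudogenes were not called, and they are named here after their values were seen. Their log2 folds ran from -1.76 for GPS2P1, which had 37.3, 1.49 and 47.0 in RIP libraries, against 49.1, 75.4 and 45.3 in input columns, to 0.90 for TLE1P1. Without RIP replicate 2, which had the fewest, the fold of GPS2P1 was -0.39 (adjusted p = 0.577). TLE1P1, a copy of a Groucho family corepressor gene within ZC3H12B, had 52.2, 83.5 and 91.7 in RIP libraries, against 36.5, 36.5 and 44.2 in input columns, so the groups did not overlap. The groups did not overlap for PCBP2P2 and UBE2SP1 either, both lower in each RIP library than in each input column, and their log2 folds were -1.14 (SE 0.58, adjusted p = 0.134) for PCBP2P2 and -1.11 (SE 0.65, adjusted p = 0.192) for UBE2SP1. PCBP2 encodes a poly(C)-binding protein and UBE2S a ubiquitin-conjugating enzyme. TTC3P1, from a ubiquitin ligase gene, had 191, 118 and 98.0 in RIP libraries, against 139.9, 21.7 and 126 in input columns, a log2 fold of 0.83 (SE 0.69, adjusted p = 0.36), while TTC3 fell to 5311 ± 1616 in RIP, against 9860.0 ± 1846 in input. The difference of those folds was 1.75 (SE 0.81, adjusted p = 0.603) and did not pass the test. The groups overlapped for PHC1P1, UBQLN4P1, LSM12P1, MPRIPP1, SSBP3P1, DBF4P1 and FNBP1P1, whose log2 folds lay between -0.43 for PHC1P1 and 0.70 for FNBP1P1. Without RIP replicate 2 the fold of UBQLN4P1 was -0.97 (adjusted p = 0.22), against -0.38 with it, and that of LSM12P1 was 0.30 (adjusted p = 0.722), against -0.21 with it. The fold of SSBP3P1 was 0.35 (adjusted p = 0.623) without that library and 0.095 with it, that of DBF4P1 0.14 (adjusted p = 0.861) and 0.52, and that of FNBP1P1 1.15 (adjusted p = 0.0877) and 0.70. None of these was called in either case.

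**Figure D3:**
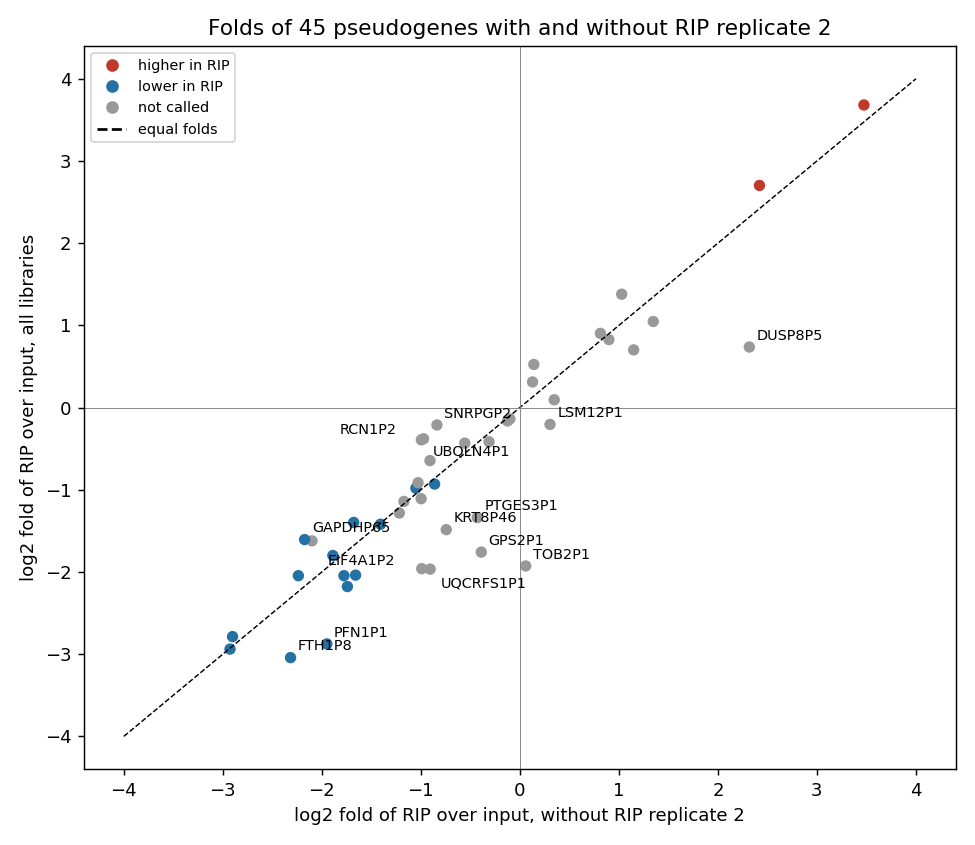
Log2 fold of RIP over input of the 45 pseudogenes with all libraries (vertical axis) against the fold without RIP replicate 2 (horizontal axis), with a dashed line at equal folds and names where the folds differ by over 0.5. DUSP8P5, at 2.32 without the library and 0.74 with it, and TOB2P1, at 0.059 and -1.93, lie farthest right of the line among the named genes, while colours mark calls with all libraries (red higher, blue lower, grey not called).

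A parent was named by the symbol for 41 of the 45 pseudogenes, from 39 parents in all, since FTL and GAPDH each had 2 copies. Of the 39 parents, 6 were higher in RIP, 24 were lower and 9 were not called, against 22.4% higher and 21.2% lower of all genes. Their median fold was -0.77 and their median SE 0.14. Copy and parent were both called lower in 12 of 41 pairs and both higher in 1, CNOT7P1. The 12 include FTH1P8, FTLP3, PFN1P1, GAPDHP1, EEF1A1P13, RANBP1P1 and UBE2D3P1, which met the limit on the mean through input. For these counts of pairs no share over all 267 pairs was computed, so they are descriptions only. In 14 pairs the parent was lower and the copy was not called, and in 5 the parent was higher and the copy was not called. Neither was called in 8 pairs, and in the remaining pair, NUS1P2, only the copy was called. No called copy ran against a called parent.

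Across the 41 pairs, the fold of the copy and the fold of the parent had a Pearson correlation of 0.61 and a Spearman correlation of 0.63, and they had the same sign in 34. These are descriptions across genes, which share the same 6 libraries and may share reads. Without RIP replicate 2 the Pearson correlation was 0.73, and without CNOT7P1 it was 0.55. In the 18 pairs whose copy lay over no other RefSeq gene it was 0.34. In the 14 pairs for which both a parent and an overlapping gene had a fold, the copy had a Pearson correlation of 0.68 with the parent and 0.096 with the overlapping gene. The Spearman correlations were 0.72 and 0.32.

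The fold of the copy minus that of the parent was above 0 in 23 of 41 pairs, with a median of 0.089, against 0.033 over all 267 pairs tested. Only FTLP12 passed the test among the 41 (background 1.50% above the parent and 0.00% below, of 267 pairs). The median SE of a difference was 0.53, and an unadjusted p under 0.05 was found for 26 of the 267 pairs.

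**Figure D4:**
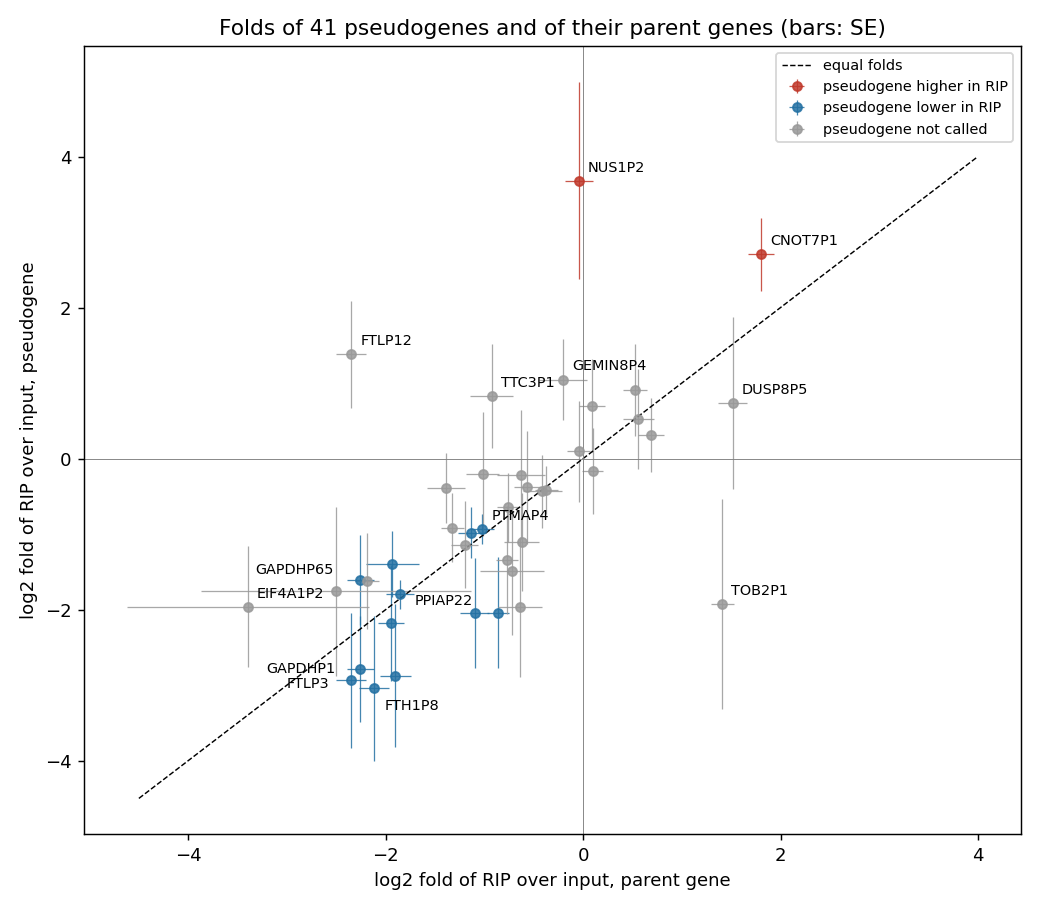
Log2 fold of RIP over input of 41 pseudogenes (vertical axis) against that of their parent genes (horizontal axis), with bars of 1 SE and a dashed line at equal folds. Red, blue and grey mark pseudogenes higher in RIP, lower in RIP and not called. FTLP12 lies at 1.38 for a parent at -2.35, and NUS1P2 at 3.68 for a parent at -0.041, whereas PPIAP22 and PTMAP4 lie near the line.

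Of the 37 ribosomal protein pseudogenes at the same limit on the mean, 30 were called lower and 0 higher, against 21.2% lower and 22.4% higher of all genes. All 37 folds were negative, with a median fold of -2.13, and their difference from the 45 was not tested. All 45 symbols had a position in the RefSeq table of GRCh38.p14. Lengths ran from 442 to 5431 bases with a median of 1215. Another RefSeq gene overlapped 24 of the 45, and for 14 a protein-coding gene did. The 17 that lay over a gene with a row in the table had 2 higher, 3 lower and a median fold of -0.42. The 28 that did not had none higher, 11 lower and a median fold of -1.41, beside the same background of 22.4% higher and 21.2% lower. Chromosome X held 9 of the 45 (20.0%), against 185 of 1985 (9.32%) of the processed pseudogenes that met the same symbol rule with a lower mean, and this difference was not tested either.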

How the data were processed

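RIP-seq of HEK293T cells was analysed from 1 deposited table. Per the submitters' processing notes, STAR, featureCounts and DESeq2 were used with GRCh38, without versions. The deposited column values are a signal, namely reads per gene over a library-wide size factor: 100% of the values are whole multiples of the column's step, within 0.01 of a read, and whole reads were recovered from them. The log2 fold change, its SE and the adjusted p-value in the table are the authors' DESeq2 results, per the file headers. The deposited mean covers 9 libraries.

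From the columns, log2(value + 1) was fitted with limma 3.58.1 in R 4.3.3 (lmFit, eBayes with trend) over genes with a mean of at least 10, with Benjamini-Hochberg adjustment over 16765 genes. Pairs were tested with limma on the log2 ratio of pseudogene to parent, adjusted over 267 pairs. A parent is the protein-coding gene whose symbol remains after the final P and digits are removed. The derived mean of inputs without a column is 9 times the deposited mean minus the 6 values, divided by 3. As an alternative, the quasi-likelihood test of edgeR 4.0.16 on the recovered reads called 3714 genes higher and 3435 lower. Other alternatives changed the pseudocount, filter, scaling, threshold and libraries. Both tests were also run on simulated data. Chi-square per degree of freedom between replicate libraries was 29.9 to 82.8, so none differed by sampling noise alone. A count of 0 allows up to 3 reads, or 2.24 to 3.49 normalized counts, for counting error only, because without molecular identifiers PCR copies count as separate reads.

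The members and lists were chosen with earlier results of these data known. Named were the 10 highest means, the 8 largest called folds in each direction with a named parent and no overlap, the highest mean of each list, and called pairs. Sequences and positions are RefSeq's, GRCh38.p14, matched by symbol.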

Additional observations from a re-analysis of the deposited data

How the results depend on the processing

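The number of pseudogenes called higher and lower in RIP was 2 and 14 in the reported setting (22.4% and 21.2% of all genes). With no filter on low values it was 1 and 7 (9.44% and 8.92%), and with scaling by total counts 4 and 6 (36.7% and 9.86%). The edgeR quasi-likelihood test gave 1 and 8 (22.2% and 20.5%). An adjusted p under 0.01 gave 1 and 5, and a deposited mean of at least 200 gave 0 and 5. For these settings no share of all genes was computed. A pseudocount of 5 gave 2 and 16 (23.1% and 21.9%). Scaling without mitochondrially encoded and small RNA genes gave 2 and 10 (25.9% and 17.8%), and the folds the authors deposited gave 2 and 18 (20.6% and 19.9%). Leaving out 1 library in turn gave 1 to 3 higher and 5 to 18 lower, against 18.7% to 22.7% higher and 17.2% to 22.1% lower of all genes. Over all genes tested, scaling by total counts called 6155 higher and 1655 lower, against 3758 and 3550. The 16 called pseudogenes kept their sign in the 12 settings compared, and 5 kept their call in all of them: PPIAP22, H3P6, H3P16, GAPDHP1 and CNOT7P1. Of the 45 folds, 33 kept their sign in all 12 settings, and the other 12 belonged to genes that were not called. With scaling by total counts 8 turned positive: 0.36 for LRRC37A9P, 0.10 for RCN1P2, 0.076 for MORF4L1P1, 0.28 for SNRPGP2, 0.057 for PHC1P1, 0.10 for UBQLN4P1, 0.27 for LSM12P1 and 0.32 for MPRIPP1. Over the 12 settings the folds ran from -0.67 to 0.30 for LSM12P1, -0.38 to 0.32 for MPRIPP1, -2.92 to 0.059 for TOB2P1, -0.093 to 0.58 for SSBP3P1, -0.10 to 2.32 for DUSP8P5 and -0.025 to 1.31 for TTC3P1. Among LRRC37A9P, RCN1P2 and SNRPGP2, further signs turned. Without the input column Input2 they were 0.17 for LRRC37A9P and 0.28 for SNRPGP2, without Input3 0.27 for SNRPGP2, without RIP replicate 1 0.50 for SNRPGP2, and without RIP replicate 3 0.054 for RCN1P2. Over the omissions of 1 library the folds ran from -0.45 to 0.17 for LRRC37A9P, -0.99 to 0.054 for RCN1P2 and -1.19 to 0.50 for SNRPGP2. The number of pseudogenes above their parent, 1, was 0 to 1 when 1 library was left out. The Pearson correlation of copy and parent folds, 0.61, was 0.34 for pairs over no other gene and 0.73 without RIP replicate 2. Against the derived mean of all 6 inputs, with no test, the fold was 3.62 for CNOT7P1, 1.75 for NUS1P2, -3.16 for FTLP3 and -1.63 for H3P6. The cause of these changes was not tested. No paired analysis was possible because the names of the input columns fit samples with and without doxycycline, so no replicate number ties an input column to 1 sample.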

Other observations

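A further 14 processed pseudogenes reached the limit on the mean without a symbol, 10 of them described as ribosomal protein copies. Of the 14, 11 were called lower in RIP and 1 higher, against 21.2% lower and 22.4% higher of all genes, with a median log2 fold of -2.07. The higher one, described as a copy of ZFAND5, had 323, 330.1 and 511 normalized counts in RIP libraries, against 266, 171 and 130.2 in input columns, a log2 fold of 1.06 (adjusted p = 0.0269). One described as a copy of EEF1G, a subunit of the elongation factor complex, had 24.0, 33.5 and 45.5 in RIP libraries, against 136, 244 and 178 in input columns, a log2 fold of -2.41 (adjusted p = 0.00296). These were named after their values were seen.

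The lowest deposited means among the 39 parents were 51.5 for GPS2, a corepressor subunit, and 58.4 for EIF4A1, followed by 220.5 for KRT8. The folds of GPS2 (-2.50, not called) and EIF4A1 (-3.40, called lower) are included in the counts and correlations of copies and parents above. GPS2 averaged 10.7 in RIP and 43.3 in input, and EIF4A1 14.4 and 81.8. Whether these rows hold the reads of the parents was not tested, and no correlation without these pairs was computed. The readthrough gene SENP3-EIF4A1 had a deposited mean of 0.788.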
